A study of Mus musculus with 6 samples.

Results

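The respiratory chain genes described here were taken by symbol from a table of 15686 genes measured in mouse spleen CD4+ T cells. They are all genes whose symbols begin with Nduf, Sdha to Sdhd, Uqcr, Cox4 to Cox8, Atp5 or the mitochondrial prefixes mt-Nd, mt-Co, mt-Atp and mt-Cytb. Of 104 matching symbols, 3 that ended in -ps were left out, which gave 101 genes, 88 encoded in the nucleus and 13 in the mitochondrial genome. The nuclear genes comprised 36 of complex I, 4 of complex II, 8 of complex III, 16 of complex IV, 16 of complex V and 8 complex I assembly factors (Ndufaf genes). Ndufa4, a former complex I subunit now placed in complex IV, and Cox7a2l, a factor of supercomplexes, were counted with complex IV, and Atp5s, a factor associated with the ATP synthase, with complex V. All 101 passed the filter on low values and were tested.

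The respiratory chain sits in the inner mitochondrial membrane. Complex I takes electrons from NADH and complex II from succinate, complex III passes them to cytochrome c, and complex IV hands them to oxygen, while complexes I, III and IV pump protons that drive the ATP synthase, complex V. Complexes I, III, IV and V are built from subunits of both genomes, whereas complex II is wholly nuclear encoded. In T cells, mitochondrial respiration is known to serve the resting state and to grow again as cells are activated and form memory.

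The study compared allogeneic with syngeneic transplantation of haematopoietic stem cells (HSCT), in order to find genes and pathways of acute graft-versus-host disease, in which donor T cells attack the host. There were 3 libraries labelled allogeneic (donor C57BL/6, host Balb/c) and 3 labelled syngeneic (donor and host Balb/c). By these labels donor strain changes together with the type of transplantation, so strain and transplantation cannot be told apart in any difference between groups. The part of donor strain in the results below, including how reads of each strain were aligned, was not tested. All 6 carry Balb/c as their strain label, and the labels give neither an age nor a time after transplantation, nor say whether a library came from 1 animal or from several. CD4+ T cells were isolated from spleen with a kit, and ribosomal RNA was depleted before the libraries were made. Values are FPKM, fragments per kilobase of transcript and M reads (M for mega). For most genes the length that fitted the values was that of all annotated exons merged, such as 6883 bases for Ndufab1 and 419 for Ndufa1. That length can exceed the transcript made, so levels of different genes compare only roughly. Genes are called abundant or low below by FPKM alone.

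Depth was 14.8 to 17.0 M reads per library. Strain genes went against the labels: Trbv26, a receptor segment whose T cells are lost in Balb/c mice, averaged 0.402 FPKM in the allogeneic-labelled libraries and 56.5 in the syngeneic-labelled ones, and H2-Ea-ps, which C57BL/6 mice do not transcribe, 133 and 21.1. The letter in the library names also goes against them, A in those labelled syngeneic and S in those labelled allogeneic. Groups are therefore called by their labels throughout, and every direction is that of the allogeneic-labelled libraries against the syngeneic-labelled ones. Were the 2 labels exchanged, every direction would reverse. The libraries also differed in markers of cell types. The 7 T cell markers summed to 416 to 425 FPKM in the allogeneic-labelled libraries and to 876 to 930 in the syngeneic-labelled ones, and all 7 were lower. Markers of red cell precursors summed to 385 to 406 against 5.19 to 6.04 FPKM (7 of 7 higher), of granulocyte precursors to 1279 to 1350 against 173 to 226 (4 of 4 higher), of macrophages to 479 to 496 against 114 to 126 (7 of 7 higher) and of cycling cells to 218 to 227 against 118 to 130 (4 of 4 higher). Plasma cell markers summed to 488 to 508 against 804 to 831 (5 of 5 lower), B cell markers to 19.96 to 21.9 against 31.3 to 35.9 (2 of 2 tested lower) and CD8 T cell markers to 1.37 to 1.57 against 13.9 to 15.6 (2 of 2 lower). Cd8a, at 0.0743 FPKM in the allogeneic-labelled libraries, and the B cell gene Ms4a1, at 0.102 in the syngeneic-labelled ones, were near 0. The part of these cells in the results below was not tested, and in such bulk samples fewer cells of a type cannot be told apart from less RNA per cell. Whether replicates came from separate animals is not said, so p-values cover no more than the spread of these libraries, possibly technical.

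Most nuclear encoded genes of the chain were higher in the allogeneic-labelled libraries, by modest amounts. Of the 88, 62 rose, 2 fell and 24 did not pass the test (limma with Benjamini-Hochberg adjustment, threshold 0.05), and their median log2 change was 0.35. Among all 13235 genes tested 67.4% passed, 40.7% higher and 26.6% lower, with a median of 0.09. The share of nuclear members past the test in either direction, 72.7%, was thus near the background, while the split between directions was not. By level, the allogeneic-labelled libraries lay above all the syngeneic-labelled ones for 64 of the 88 genes and below them for 3, against 43.4% and 29.1% of all genes (72.5% together). The mitochondrially encoded genes were more mixed, with 6 higher, 1 lower and 6 not past the test and a median of 0.22.

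**Figure D1:**
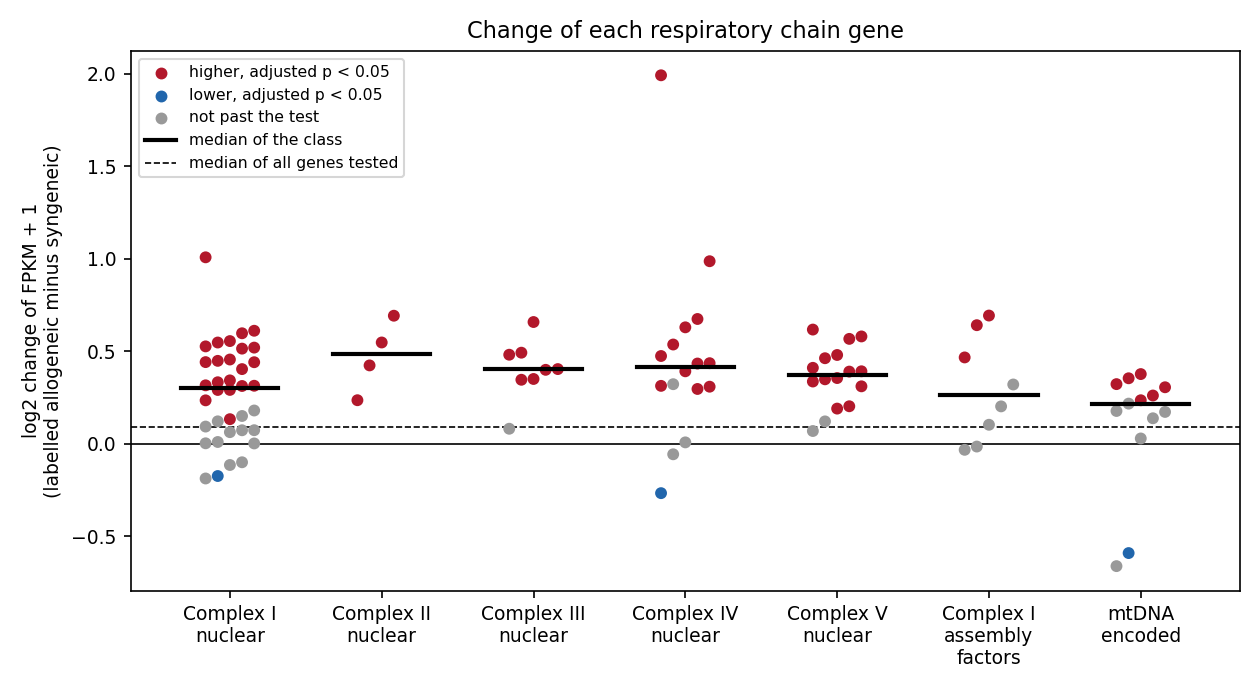
Each point is the log2 change of FPKM + 1 of 1 gene (libraries labelled allogeneic minus syngeneic), by complex for nuclear genes and together for the 13 mitochondrially encoded genes, with thick bars at class medians and a dashed line at the median of all genes tested. Medians of the nuclear complexes lie between 0.30 (complex I) and 0.49 (complex II), above the dashed line at 0.09, and the blue points that fell, Ndufa13, Cox7a2l and mt-Nd3, turn positive when FPKM are scaled to the CD3 chains, a scaling that moves the median of all genes to 1.02.

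Complex I is the largest assembly of the chain and receives the electrons of NADH. Of its 36 nuclear genes 22 rose (61.1%), 1 fell (2.78%) and 13 did not pass the test, with a median log2 change of 0.30. Among all genes tested 40.7% were higher and 26.6% lower. The share of complex I genes past the test in either direction, 63.9%, was near the 67.4% of all genes. Of the 7 subunits of the catalytic core 6 rose and Ndufs3 did not pass the test, and of the 29 supernumerary subunits 16 rose and 1 fell. Ndufs1, which carries iron-sulphur clusters, rose from 9.31 ± 0.0898 to 13.1 ± 0.365 FPKM (SD, n = 3 each), and Ndufv1, the flavin-bearing subunit that binds NADH, from 31.6 ± 1.36 to 39.5 ± 0.911.

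The largest complex I change was that of Ndufc2, a supernumerary subunit of the membrane arm (ENSMUSG00000030647, chromosome 7, 97400003 to 97407802). It stood at 59.1, 61.3 and 65.0 FPKM in the allogeneic-labelled libraries and at 30.3, 32.9 and 27.6 in the syngeneic-labelled ones. The groups lay far apart, with a 2.04-fold difference of means (log2 change 1.01, SE 0.0680, limma adjusted p = 2.12e-05). Ndufc1, its neighbour in the membrane arm, rose by 0.61 on the log2 scale, from 8.02 ± 0.203 to 12.8 ± 1.07 FPKM. Ndufa5 (0.60), Ndufb4 (0.56), Ndufab1 (0.55), the acyl carrier protein, and Ndufs5 (0.53) followed, of which the last 3 share near-identical sequence with a pseudogene and are uncertain.

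Not all complex I genes moved this way. Ndufa13, a membrane arm subunit also known as GRIM-19 (ENSMUSG00000036199, chromosome 8, 69894180 to 69902558), stood at 31.9, 32.4 and 34.4 FPKM against 35.4, 36.9 and 39.3. The groups did not overlap but came close, and the fall was 0.17 on the log2 scale (SE 0.0499, limma adjusted p = 0.0183). Exons of Tssk6 on the opposite strand cover 30.0% of its exons, and since the library kit named in the labels is not a directional version, reads of the 2 genes may not be told apart. Its call was lost without replicate 1 or 2 of the allogeneic-labelled libraries (limma adjusted p = 0.0624 and 0.0579), and without the mitochondrially encoded genes in the scaling its value turned to 0.02. That last setting made the summed FPKM of all other genes equal between libraries, which the deposited sums are not. The most abundant nuclear complex I gene by mean FPKM, Ndufa1, stood at 72.0, 76.3 and 83.9 against 95.4, 88.4 and 81.1, so that the groups overlapped (log2 change -0.19, limma adjusted p = 0.0656), and it passed as lower without replicate 3 of either group (limma adjusted p = 0.0317 and 0.0281). It also passed as lower with equal upper quartiles (-0.29, limma adjusted p = 0.0124), without immunoglobulin genes (-0.29, 0.00924), with equal library medians (-0.31, 0.011) and with voom on recovered reads (-0.20, 0.0446), while without the mitochondrially encoded genes it stood at 0.01. Ndufb10, Ndufb7 and Ndufa2, other supernumerary subunits, had log2 changes of 0.00, 0.00 and 0.01.

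All 4 genes of complex II, succinate dehydrogenase, rose, beside 40.7% of all genes tested, with a median log2 change of 0.49. Sdhd, a membrane anchor that binds quinone and the most abundant of the 4 (ENSMUSG00000000171, chromosome 9, 50596357 to 50603812), stood at 111, 112 and 101 FPKM against 66.1, 64.5 and 68.4. The groups were well separated, by 0.69 on the log2 scale (SE 0.0476, limma adjusted p = 2.30e-05). Sdhc, the other anchor, rose by 0.55, Sdha, the flavoprotein that oxidises succinate, by 0.42 and Sdhb, the iron-sulphur subunit, by 0.24. In this small complex the 2 membrane anchors thus had larger changes than the 2 catalytic subunits, a difference that was not tested.

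In complex III, cytochrome bc1, 7 of 8 nuclear genes rose and the eighth did not pass the test, with a median of 0.40. Of all genes tested 40.7% were higher and 26.6% lower. Cyc1, the cytochrome c1 of this complex, does not match the symbols used. It was read with the electron carriers and is in no count or sum of the complex. Uqcrb, a small subunit that binds quinone, rose from 37.0 ± 1.53 to 59.0 ± 2.07 FPKM (log2 change 0.66, SE 0.0439, limma adjusted p = 2.02e-05) and Uqcr11 from 31.9 ± 0.319 to 45.3 ± 1.48. Both have a near-identical pseudogene copy and are uncertain, and those copies, Gm2962 and Gm16418, also rose, by 0.62 and 0.48. Uqcrfs1, the Rieske iron-sulphur protein, rose by 0.40, and the core proteins Uqcrc2 and Uqcrc1 by 0.48 and 0.35. The most abundant gene, Uqcrh, the hinge protein, stood at 87.8, 92.0 and 86.4 FPKM against 81.8, 93.7 and 76.7, an overlap of groups with a log2 change of 0.08 that passed as higher without the mitochondrially encoded genes (0.28) and without replicate 2 of the syngeneic-labelled libraries (0.16). Uqcr10 passed only narrowly (0.40, limma adjusted p = 0.0481), as 1 library labelled syngeneic stood at 88.2 FPKM and the other 2 at 56.8 and 64.0, and it did not pass without any of 5 of the 6 libraries (limma adjusted p = 0.0862 to 0.129).

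Complex IV, cytochrome c oxidase, had 12 nuclear genes higher (75.0%), 1 lower (6.25%) and 3 not past the test, with a median of 0.41. All genes tested were 40.7% higher and 26.6% lower. Ndufa4 (ENSMUSG00000029632, chromosome 6, 11900292 to 11907497) stood at 91.8, 102 and 102 FPKM against 48.8, 54.2 and 44.8. Every library labelled allogeneic was far above every other, a 1.998-fold difference of means (log2 change 0.99, SE 0.0764, limma adjusted p = 4.02e-05). Cox8a, the common isoform of subunit 8 and the most abundant nuclear gene of the complex, rose from 152 ± 10.8 to 243 ± 3.80 FPKM (0.67), and Cox5a, which binds regulators of the enzyme, from 20.1 ± 1.49 to 31.5 ± 1.23 (0.63).

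Several complex IV subunits have a common isoform and another restricted to tissues such as heart, skeletal muscle, lung or testis. These 6 common isoforms rose, Cox4i1 by 0.39, Cox6a1 by 0.31, Cox6b1 by 0.44, Cox7a2 by 0.47, Cox7b by 0.54 and Cox8a by 0.67 on the log2 scale. Of the restricted isoforms, Cox4i2 of the lung (2.30 ± 0.657 against 2.26 ± 0.546 FPKM), Cox6b2 of the testis (14.9 ± 1.68 against 15.5 ± 1.34) and Cox7a1 of muscle (2.17 ± 0.611 against 1.61 ± 0.884) did not pass the test. They were low beside their common partners, which ran from 47.6 to 167 FPKM in the group means.

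The exception among restricted isoforms was Cox6a2, the heart and muscle form (ENSMUSG00000030785, chromosome 7, 128205435 to 128206387). It stood at 6.15, 4.64 and 6.47 FPKM in the allogeneic-labelled libraries and at 0.607, 1.13 and 0.396 in the syngeneic-labelled ones. Its log2 change of 1.99 (SE 0.182, limma adjusted p = 8.51e-05) was the largest of all 101 genes on the log2(FPKM + 1) scale, yet its reads numbered only 4 to 69 per library. The size depended on the pseudocount, at 0.91 with a pseudocount of 5, under Ndufa4 (0.93) and Ndufc2 (0.92), at 2.94 with 0.1 and at 3.02 with voom on recovered reads. Even so it made up 3.28% ± 0.583 of the summed Cox6a1 and Cox6a2 level against 0.517% ± 0.278 (SD, n = 3), and a two-sided exact permutation test gave its lowest possible p for 3 against 3 libraries, 0.1. Exons of Itgad, a leukocyte integrin gene on the opposite strand, cover 10.3% of its exons, and their part in these reads was not tested.

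Cox7a2l, which helps complexes III and IV associate into supercomplexes (ENSMUSG00000024248, chromosome 17, 83501918 to 83517330), went the other way. It stood at 134, 132 and 135 FPKM against 165, 162 and 157, a clean separation, and fell by 0.27 on the log2 scale (SE 0.0323, limma adjusted p = 3.35e-04). Its ratio to the related subunit gene Cox7a2, which itself rose by 0.47, was 2.01 ± 0.0960 against 3.39 ± 0.205 (two-sided exact permutation p = 0.1). Its fall did not pass the test after quantile normalization (-0.02) or without the mitochondrially encoded genes in the scaling (-0.07). A stretch of 201 bases is shared at 100% identity with the pseudogene Gm6969, which stood at only 3.34 ± 0.585 and 3.59 ± 0.648 FPKM.

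**Figure D2:**
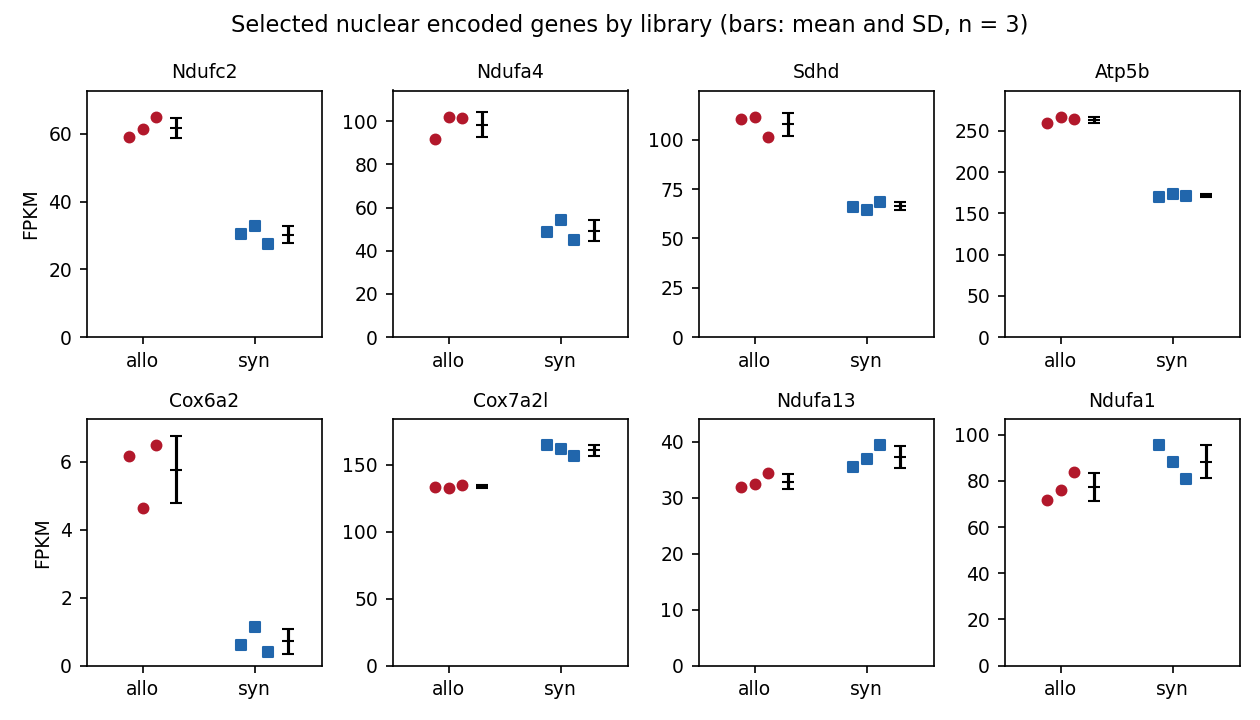
FPKM of 8 nuclear encoded genes in each library labelled allogeneic (allo, red circles) and syngeneic (syn, blue squares), with the mean and SD of 3 libraries beside them and every axis starting at 0. Ndufc2 and Ndufa4 differ 2.04-fold and 1.998-fold without overlap, Cox7a2l and Ndufa13 are lower in FPKM as deposited though higher when scaled to the CD3 chains, and the 2 groups of Ndufa1 overlap.

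In complex V, the ATP synthase, 14 of 16 nuclear genes rose and 2 did not pass the test, with a median of 0.37. Of all genes tested 40.7% were higher and 26.6% lower. Atp5b, the catalytic beta subunit of the F1 head (ENSMUSG00000025393, chromosome 10, 128083273 to 128090391), stood at 260, 267 and 264 FPKM against 170, 173 and 172. Replicates were tight and the groups far apart, and this gave the smallest adjusted p of the members (log2 change 0.62, SE 0.0302, limma adjusted p = 5.17e-06). Atp5a1, the alpha subunit and the most abundant nuclear member at 306 ± 5.72 against 207 ± 8.37 FPKM, rose by 0.57 and Atp5c1, the central stalk gamma subunit, by 0.39. The other 2 stalk subunits, Atp5d (0.07) and Atp5e (0.12), did not pass the test.

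The remaining parts of the synthase rose as well. The 3 genes of the proton-carrying c-ring, Atp5g1, Atp5g2 and Atp5g3, which encode the same mature protein, had log2 changes of 0.39, 0.41 and 0.46. All 4 peripheral stalk genes rose, from 0.19 (Atp5j) to 0.58 (Atp5o, of whose exons Gm15976 on the opposite strand covers 47.9%), and so did the membrane accessory genes Atp5j2, Atp5k and Atp5l, by 0.31 to 0.36. Atp5h and Atp5s lay close to the threshold (limma adjusted p = 0.0462 and 0.0479), and lost their call without any of 5 and of 4 of the 6 libraries. Atp5g1 itself was low in FPKM, which for it are taken over 4912 bases of merged exons, at 10.9 ± 0.485 against 8.12 ± 1.18. Its pseudogene Gm10039, 99.8% identical over 411 bases, was listed at 110 ± 13.2 against 64.5 ± 17.3.

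Assembly factors build complex I but are not part of it, and they had lower levels, with means over the 6 libraries of 3.09 to 11.2 FPKM. Of the 8, 3 rose (37.5%, near the 40.7% of all genes) and 5 did not pass the test. Ndufaf4 rose from 5.86 ± 0.470 to 10.1 ± 0.269 FPKM (log2 change 0.69), Ndufaf6 from 4.12 ± 0.515 to 6.97 ± 0.352 (0.64) and Ndufaf2, a chaperone-like factor whose exons B230220B15Rik on the opposite strand covers by 65.6%, from 2.44 ± 0.270 to 3.75 ± 0.406 (0.47). Ndufaf1, the most abundant, overlapped between groups (0.20), and Ndufaf5 and Ndufaf7, the latter a methyltransferase, stood at -0.01 and -0.03. Ndufaf1 passed as higher without the mitochondrially encoded genes (0.39) and without replicate 1 of the syngeneic-labelled libraries (0.28).

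The 13 mitochondrially encoded genes fell into 2 ranges of level. At the top were mt-Co1, the catalytic subunit of complex IV, with a mean of 7158 FPKM over the 6 libraries, mt-Cytb, the cytochrome b of complex III, with 2822, and mt-Nd1, mt-Nd2, mt-Nd4, mt-Nd5 and mt-Nd6, membrane subunits of complex I. The lowest of these 7, mt-Nd4, averaged 788 FPKM. The other 6, mt-Co2, mt-Co3, mt-Atp6, mt-Atp8, mt-Nd3 and mt-Nd4l, averaged only 7.37 to 54.5. The lower range held all 5 genes whose sequence is wholly copied on chromosome 1, together with mt-Atp8.

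These copies are annotated unprocessed pseudogenes that lie together on chromosome 1 in build GRCm38. They hold 99.0% to 99.9% of the length of mt-Co2, mt-Atp6, mt-Co3, mt-Nd3 and mt-Nd4l at 99.7% to 100% identity, 63.6% of mt-Nd4 and 31.3% of mt-Co1. Among annotated pseudogenes no copy of mt-Nd1, mt-Nd2, mt-Nd5, mt-Nd6 or mt-Cytb was found. Nor was one found of mt-Atp8, which lies between mt-Co2 and mt-Atp6 and shares 21.1% of its bases with the latter. Sequence outside annotated genes, as between the chromosome 1 copies of mt-Co2 and mt-Atp6, was not searched. How the authors counted reads that match 2 places equally well is not given in the sources used here, so the values of the 7 genes with a copy and of mt-Atp8 are uncertain. The 7 copies summed to 127 to 138 FPKM in the allogeneic-labelled libraries and to 85.4 to 131 in the syngeneic-labelled ones, an overlap (two-sided exact permutation p = 0.3).

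The windows below show how alike gene and copy are, as 60 bases of GENCODE M21 transcripts in build GRCm38, 5′ to 3′, with differences in capitals. For mt-Nd3 they are the beginning of the gene, chrM:9459-9518 on the plus strand, and of its copy Gm28438, chr1:24613060-24613119 on the minus strand.
mt-Nd3: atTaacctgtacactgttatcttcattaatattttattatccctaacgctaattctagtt
Gm28438: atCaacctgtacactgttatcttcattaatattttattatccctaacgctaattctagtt
The single difference is T3C, counted from 1 at the gene's 5′ end, with the gene's base before the copy's. It is a base at which mitochondrial genomes of inbred mouse strains are known to differ. For mt-Co1 the window is chrM:6390-6449 on the plus strand, with chr1:24616129-24616188 on the minus strand for Gm29216.
mt-Co1: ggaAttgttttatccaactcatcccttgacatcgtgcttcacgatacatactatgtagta
Gm29216: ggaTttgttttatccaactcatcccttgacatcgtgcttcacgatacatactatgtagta
The difference is A1066T, counted likewise. For mt-Co2, the same stretch of chrM:7013-7072 on the plus strand and of Gm28661 at chr1:24615506-24615565 on the minus strand held no difference.
mt-Co2: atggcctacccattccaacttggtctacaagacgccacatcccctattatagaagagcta
Gm28661: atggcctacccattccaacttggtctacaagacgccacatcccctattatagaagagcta

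Apart from mt-Atp8, which shares bases with the copied mt-Atp6 and is described with the genes that have a copy, 5 genes had no annotated copy, and these rose by 0.24 to 0.38 on the log2 scale. mt-Nd1 stood at 2589, 2579 and 2563 FPKM in the allogeneic-labelled libraries and at 2003, 2081 and 1874 in the syngeneic-labelled ones. The groups did not overlap (log2 change 0.38, SE 0.0598, limma adjusted p = 0.00128). mt-Nd2 rose by 0.35, mt-Cytb by 0.31 and mt-Nd5 by 0.24, the last 2 not past the test when library medians were made equal, nor mt-Nd5 with equal upper quartiles (limma adjusted p = 0.0528). mt-Nd6, the only gene of the 13 on the other strand, rose by 0.32 from 978 ± 62.8 to 1222 ± 31.0 FPKM, and reads of the opposite strand's transcript may be among its reads, since strand use in counting is not stated.

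Genes with a copy behaved less uniformly. mt-Nd4, with a copy of part of its length, rose by 0.26, whereas mt-Co1 stood at 7340, 7159 and 7180 FPKM against 7387, 7195 and 6687. Its groups overlapped (log2 change 0.03, SE 0.0799, limma adjusted p = 0.768), and while equal upper quartiles (-0.07), equal library medians (-0.09) and leaving out immunoglobulin genes (-0.08) turned its sign, quantile normalization moved it to 0.88 and past the test. Relative to the sum of the 5 genes without an annotated copy, again without mt-Atp8, mt-Co1 was at 0.742 ± 0.00608 against 0.910 ± 0.0281, with no overlap of groups (two-sided exact permutation p = 0.1). mt-Co2, mt-Co3, mt-Atp6, mt-Atp8 and mt-Nd4l did not pass the test, and their groups overlapped. Of these, mt-Co2 and mt-Nd4l each passed as higher when 1 library was left out. mt-Atp8 had a log2 change of -0.66 (limma adjusted p = 0.0679) and passed as lower without replicate 3 of the syngeneic-labelled libraries (limma adjusted p = 0.0116), with equal upper quartiles, with equal library medians, without immunoglobulin genes and after quantile normalization (limma adjusted p = 0.0391 to 0.0439).

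mt-Nd3, a small complex I subunit (chromosome M, 9459 to 9806), was the only mitochondrially encoded gene to pass the test as lower in FPKM as deposited. It stood at 4.95, 5.86 and 6.23 FPKM against 9.49, 9.54 and 8.13, from 28 to 56 reads per library. Low as it was, the groups did not overlap (log2 change -0.59, SE 0.0935, limma adjusted p = 0.00126). Its copy Gm28438 went the opposite way, at 13.9, 14.7 and 16.5 FPKM against 7.86, 8.42 and 3.91 (log2 change 1.11, SE 0.241, limma adjusted p = 0.00573). Gene and copy together summed to 20.7 ± 1.92 against 15.8 ± 3.25 FPKM, higher in the allogeneic-labelled libraries (two-sided exact permutation p = 0.1). The part of reads shared between gene and copy in the fall of mt-Nd3 was not tested.

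**Figure D3:**
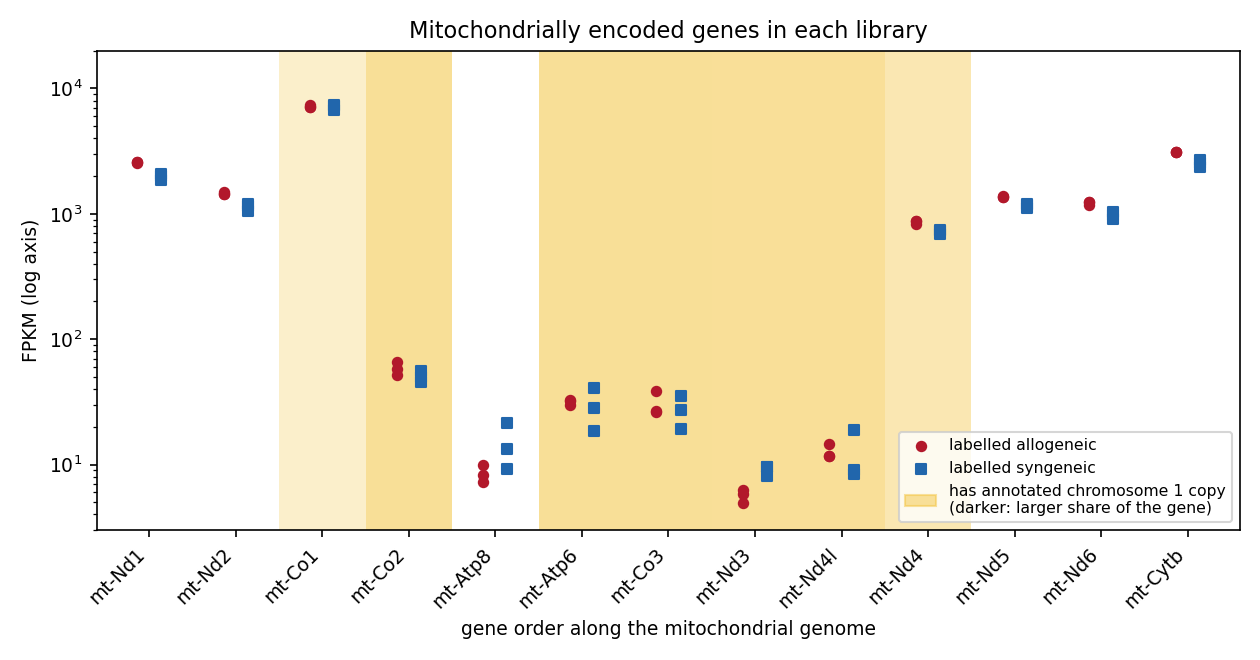
FPKM on a log axis of the 13 mitochondrially encoded genes in their order along the mitochondrial genome, with libraries labelled allogeneic as red circles and syngeneic as blue squares, and shading for genes with an annotated copy on chromosome 1. The 5 wholly shaded genes and mt-Atp8 between them average 7.37 to 54.5 FPKM, while the other 7 average 788 to 7158.

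Summed levels gave the weight of each genome. The 88 nuclear genes summed to 4702, 4745 and 4702 FPKM in the allogeneic-labelled libraries and to 3638, 3734 and 3530 in the syngeneic-labelled ones (log2 difference 0.38). The 13 mitochondrially encoded genes summed to 18210, 17920 and 17780 against 16170, 16270 and 14790 (0.19). Neither pair of groups overlapped, and each gave the smallest p of the two-sided exact permutation test, 0.1. The share of all FPKM in the table was 5.46% ± 0.0785 against 4.21% ± 0.186 for mitochondrially encoded and 1.43% ± 0.00876 against 0.971% ± 0.0155 for nuclear encoded genes. Immunoglobulin genes took 9.17% ± 0.126 of all FPKM against 25.6% ± 0.722, which enters every share.

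By complex, nuclear sums were higher by 0.26 (complex I), 0.52 (II), 0.38 (III), 0.40 (IV) and 0.45 (V) on the log2 scale, without overlap. Mitochondrially encoded sums were higher by 0.32 for complex I and 0.31 for complex III. Those of complex IV (7315 ± 102 against 7167 ± 371 FPKM) and complex V (39.9 ± 2.91 against 43.9 ± 14.2) overlapped between groups (two-sided exact permutation p = 0.9 for each). The complex IV sum is nearly all mt-Co1, which made up 40.2% ± 0.226 of mitochondrially encoded FPKM against 45.04% ± 0.751.

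The ratio of mitochondrially to nuclear encoded sums was 3.81 ± 0.0545 in the allogeneic-labelled libraries and 4.33 ± 0.129 in the syngeneic-labelled ones (log2 difference -0.18, two-sided exact permutation p = 0.1). As a ratio of sums it depended on mt-Co1. Without mt-Co1 the log2 difference was -0.06, and with only the 5 genes that have no annotated copy, mt-Atp8 left out, the ratio was 2.07 ± 0.0268 against 2.14 ± 0.0638, with overlapping groups (-0.05, two-sided exact permutation p = 0.2). These alternatives were chosen after the data were seen. As a difference of mean log2 values, in which each gene has the same weight, it was -0.25. There mt-Nd3 (-0.59, 28 to 56 reads) and mt-Atp8 (-0.66, 24 to 74 reads) count as much as mt-Co1. The other 11 mitochondrially encoded genes had changes above 0, and the part of these 2 low genes in the -0.25 was not tested. Quantile normalization, which sets each level by its rank in the library, turned the difference of the full ratio to 0.28. In the fit of single genes it moved mt-Co1 to 0.88, and the part of mt-Co1 in the turn of the ratio was not tested.

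**Figure D4:**
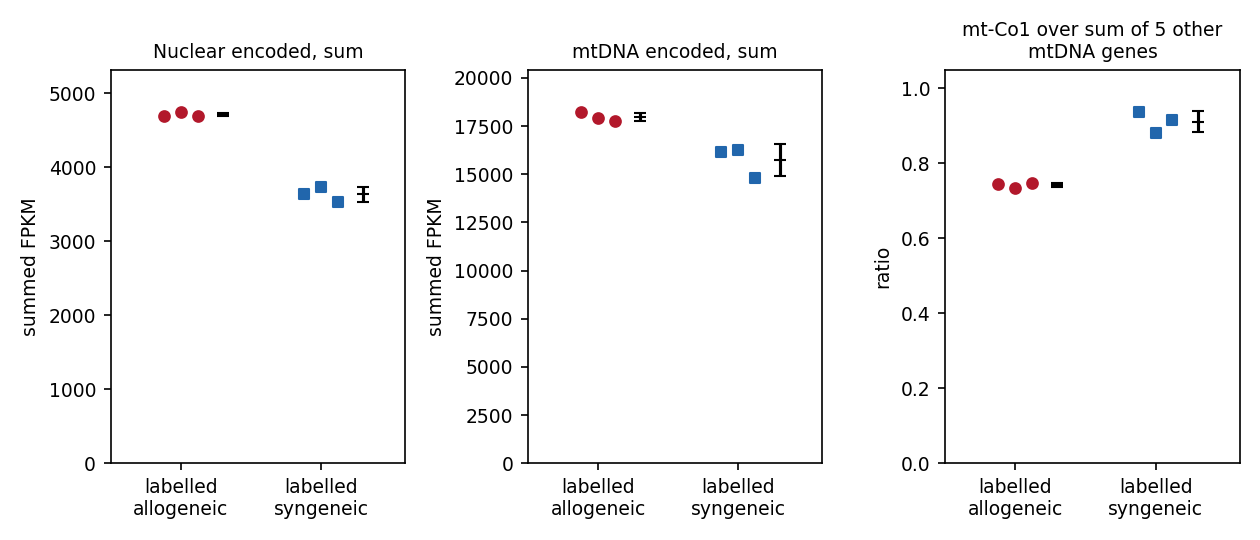
Summed FPKM of the 88 nuclear and the 13 mitochondrially encoded genes in each library, and the ratio of mt-Co1 to the summed FPKM of the 5 mitochondrially encoded genes other than mt-Atp8 with no annotated copy, with mean and SD of 3 libraries and axes from 0. Libraries labelled allogeneic (red circles) lie above the syngeneic-labelled ones (blue squares) in both sums, and below them in the ratio, 0.742 against 0.910.

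Rises were found over the whole range of levels and in genes with and without sequence problems. With the 88 genes split by mean FPKM into 4 sets of 22, from the highest to the lowest, 18, 18, 15 and 11 rose, against 45.2%, 48.6%, 47.8% and 38.1% of all tested genes in the same ranges of level. Of the 14 with a near-identical pseudogene copy 11 rose and 1 fell, and of the 74 without, 51 rose and 1 fell. Ndufa12 is an example of that uncertainty, since it stood at 11.1 ± 0.942 against 10.1 ± 0.213 FPKM and did not pass the test, while its pseudogene Gm15920 was listed at 83.3 ± 4.38 against 43.4 ± 4.86. Of 12 nuclear genes with over 10% of their exons under another gene, 10 rose and 1 fell. Spearman's rho between log2 change and log2 mean level was 0.14 across the 88 genes, which are not independent and share libraries.

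Scaling moved the counts more than single libraries did. With equal upper quartiles 55 nuclear genes were higher and 5 lower, with equal library medians 53 and 6, and after leaving out immunoglobulin genes 55 and 5. All genes then split nearly evenly, at 34.5% higher and 32.7% lower, 32.4% and 35.2%, and 34.2% and 32.7%. After quantile normalization 60 nuclear genes were higher and 1 lower, against 35.3% and 32.5% of all genes. Without the mitochondrially encoded genes in the scaling 76 were higher and 0 lower, against 53.3% and 18% of all genes. With the replicate number as a block the counts were 62 and 2, against 39.5% and 26% of all genes. Scaled to the 4 CD3 chains, which are themselves lower in the allogeneic-labelled libraries, all 88 nuclear genes were higher (median 1.39), beside 86.2% higher and 4.13% lower of all genes and a median of all genes of 1.02. Measured from the median of all genes, Cox7a2l stayed between -0.38 and -0.03, Ndufa13 between -0.30 and -0.14 and mt-Nd3 between -0.78 and -0.45 under every setting in which each was tested, which for Cox7a2l did not include voom.

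Promoters of nuclear respiratory genes are known for binding sites of NRF1, of ETS-family factors such as GABP, of YY1 and of the oestrogen-related receptors (ERR), the regulators through which respiratory genes are coordinated. Promoters from 250 bases before to 50 after the start (RefSeq, GRCm38.p6) were matched for 74 of the 88 genes. Searched on both strands, the NRF1 motif, shown in capitals in the promoters below, was in 25.7% of them, against 11.9% of 9140 tested genes with a promoter and 5.19% of all 27025 promoters. The ETS motif CCGGAAG was in 24.3%, 21.1% and 9.93%, the YY1 motif AAGATGGC in 14.9%, 5.62% and 3.19%, and the ERR motif AAGGTCA in 10.8%, 3.86% and 5.38%. Of the 19 genes with the NRF1 motif 16 rose and 0 fell (median 0.39), and of the 55 without it 34 rose and 2 fell (median 0.32). The other motifs did not all split this way. For ETS 12 of 18 rose with it and 38 of 56 without (medians 0.30 and 0.37). For YY1 8 of 11 and 42 of 63 rose (0.31 and 0.34), and for ERR 6 of 8 and 44 of 66 (0.41 and 0.32). With any of these motifs 30 of 42 rose, and with none 20 of 32 (0.34 and 0.33). No split was tested, and 40.7% of all genes tested were higher. A match is a string of letters, not a shown binding site.

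The promoters of Ndufaf4, chr4:24897833-24898132 on the plus strand, and Sdhd, chr9:50603800-50604099 on the minus strand, are shown because they have the largest rises among genes with an NRF1 match. Cox7a2l, chr17:83514284-83514583 on the minus strand, is shown as the gene with the larger of the 2 falls. Capitals mark the motifs, 5′ to 3′ on the gene's strand.
Ndufaf4: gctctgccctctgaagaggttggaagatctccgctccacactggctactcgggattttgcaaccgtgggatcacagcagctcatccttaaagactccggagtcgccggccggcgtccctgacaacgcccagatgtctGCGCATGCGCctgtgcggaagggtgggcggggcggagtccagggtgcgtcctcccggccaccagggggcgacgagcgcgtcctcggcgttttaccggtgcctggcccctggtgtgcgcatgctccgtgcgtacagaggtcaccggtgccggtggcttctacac
Sdhd: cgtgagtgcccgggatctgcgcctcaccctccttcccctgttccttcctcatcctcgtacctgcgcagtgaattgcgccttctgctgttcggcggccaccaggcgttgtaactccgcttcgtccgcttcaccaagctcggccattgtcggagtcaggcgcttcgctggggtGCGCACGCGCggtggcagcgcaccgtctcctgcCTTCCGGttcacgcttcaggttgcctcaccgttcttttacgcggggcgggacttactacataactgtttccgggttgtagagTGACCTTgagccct
Cox7a2l: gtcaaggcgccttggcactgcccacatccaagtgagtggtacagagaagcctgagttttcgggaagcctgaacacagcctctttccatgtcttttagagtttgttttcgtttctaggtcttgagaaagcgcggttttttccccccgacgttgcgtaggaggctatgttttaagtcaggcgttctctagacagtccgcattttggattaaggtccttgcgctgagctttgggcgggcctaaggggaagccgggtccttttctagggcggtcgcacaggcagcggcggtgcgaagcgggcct
Ndufaf4 holds the NRF1 motif beginning 113 bases before the start. Sdhd holds the NRF1 motif beginning 79 bases before the start, the ETS motif on the opposite strand beginning 46 bases before it, and the ERR motif on the opposite strand 36 bases after it. In the windows searched Cox7a2l held none of the 4, nor did Ndufa13, Ndufc2 or Ndufa4, 3 other genes described above. The windows of Cox7a2l and Ndufa13 lie inside the gene spans given above, and the outer 5′ ends of those spans were not searched.

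Genes that serve the chain were read from lists beside it, against 40.7% higher and 26.6% lower among all genes tested. Of 18 genes of the citric acid cycle and pyruvate dehydrogenase, which supply NADH and succinate, 17 rose and 0 fell, with a median log2 change of 0.54. Idh2, the mitochondrial NADP-dependent isocitrate dehydrogenase, stood at 65.4, 69.5 and 66.3 FPKM against 23.7, 22.5 and 23.3, and Fh1, fumarase, at 38.0, 40.05 and 38.6 against 15.2, 15.8 and 15.4. Both were far above the other group in every library, by 1.49 (limma adjusted p = 4.50e-07) and 1.28 (6.52e-07). Only Idh3b (-0.03) did not pass the test, and it passed as lower with equal upper quartiles (-0.13), with equal library medians (-0.16) and without immunoglobulin genes (-0.13).

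Electron carriers and quinone enzymes had 15 of 22 genes higher and 1 lower (median 0.30). Cycs, cytochrome c, rose from 18.1 ± 2.14 to 32.4 ± 0.872 FPKM (0.81) and Coq4, of coenzyme Q synthesis, from 1.08 ± 0.113 to 2.77 ± 0.138 (0.86), while Coq10b stood at -0.12. Coq10a fell by 0.25, a call lost without replicate 1 or 3 of the allogeneic-labelled or 2 or 3 of the syngeneic-labelled libraries (limma adjusted p = 0.0646 to 0.0899). Without the mitochondrially encoded genes in the scaling, the falls of Coq10a, Taz and Mrpl9 in these lists did not pass the test. Of 17 carriers and related genes 10 rose and 2 fell (0.25), with Slc25a13, an aspartate-glutamate carrier, at 1.33 (8.33 ± 0.475 against 2.73 ± 0.333 FPKM) and Atpif1, the inhibitor of the ATP synthase, at 1.14 (31.1 ± 1.59 against 13.6 ± 1.42). The acylcarnitine carrier Slc25a20 fell by 0.49. Of 22 genes of cristae and the inner membrane 16 rose and 1 fell (0.37), led by Chchd6 (1.35) and Apoo (0.81), both of the cristae junction complex, with Taz, the cardiolipin-remodelling enzyme, lower by 0.29.

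Of genes that copy and express mitochondrial DNA, 17 of 34 were higher, beside 40.7% of all genes, and 9 lower (median 0.17), a share of 26.5% that equals the background of 26.6% within 1 gene. Fastkd2, which processes mitochondrial RNA, rose by 0.82 and Mgme1, a mitochondrial DNA exonuclease, by 0.81, whereas Mterf2 fell by 0.50 and Tk2, which supplies DNA precursors, by 0.48. Tfam, which packages mitochondrial DNA and starts its transcription, was chosen after its values were seen and stood at 14.6 ± 0.935 against 12.3 ± 0.882 FPKM (0.23, limma adjusted p = 0.0207). Of 77 mitochondrial ribosomal protein genes 53 rose and 3 fell (0.33), with Mrpl12 (0.83) and Mrpl34 (0.82) highest and Mrpl58 (-0.52) and Mrpl9 (-0.25) lowest. Assembly factors beyond the Ndufaf genes had 15 of 35 higher (42.9%, near the 40.7% of all genes) and 3 lower (0.17), with Nubpl, of complex I iron-sulphur clusters, at 0.64 and Coa3, of complex IV, at 0.58, and Cox17, the copper chaperone, at -0.57 and Surf1, of complex IV, at -0.47.

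Among 14 regulators of mitochondrial biogenesis 7 rose, beside 40.7% of all genes, which is not far from the background, and 1 fell (median 0.17). Sirt3, the mitochondrial deacetylase, rose from 2.24 ± 0.433 to 5.16 ± 0.190 FPKM (0.93) and Myc, a growth-promoting transcription factor, from 31.7 ± 1.66 to 45.9 ± 1.26 (0.52). Gabpb2, a partner of the ETS factor GABP, fell by 0.34, and the coactivator Ppargc1b stood at -0.07. Nrf1 itself, named after its values were seen for its motif above, overlapped between groups at 7.18 ± 0.297 against 6.93 ± 0.234 FPKM (0.04, limma adjusted p = 0.482).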

How the data were processed

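RNA was measured in 6 libraries. The authors deposited 1 table of FPKM, a unit read from the values themselves. How reads were aligned and counted, and with which build, is not given in the sources used here. Limma is named in the submitters' processing notes. For 92.9% of genes, FPKM times merged exon length (GENCODE M21, GRCm38) was a whole number of reads within 0.05 in all libraries, which gave the depth of each, 14.8 to 17.0 M reads. No other value column was present. Between replicates the median chi-squared ratio to counting error was 2.36 to 3.47, so none was a repeat within counting noise and each entered as 1 library, which does not show separate animals.

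The main test was limma 3.58.1 (R 4.3.3, trend, Benjamini-Hochberg threshold 0.05), run on log2(FPKM + 1) of the 13235 genes that reached 1 FPKM in 3 libraries or more. Changes on that scale understate those of low genes. Sums and ratios had a two-sided exact permutation test over the 20 regroupings of libraries. The limma step was also run on simulated reads, with few changed genes and otherwise the same composition in both groups. These data differ in both respects, so that run cannot show how often their calls are wrong. Copies were annotated pseudogenes found with BLAST+ 2.17.0 at 98% identity or more over at least 100 bases. Python 3.11.15, pandas 2.3.3 and matplotlib 3.10.9 made tables and plots.

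Members, lists, tests and motifs were chosen with earlier results of these data known. The rule for named genes took all mitochondrially encoded genes, per complex the most abundant gene and the 2 largest changes each way, the isoform pairs of complex IV and the 2 largest changes each way of every other list. Members named beyond it were chosen for their role or, like the promoters shown, after their values were seen. Complex and role were assigned after the table was read. Some genes that the rule or a role would name are not reported here singly, though counts and sums include them.

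Alternatives were other filters, pseudocounts of 0.1 and 5, equal upper quartiles or library medians, quantile normalization, scaling to the CD3 chains, leaving out immunoglobulin or mitochondrially encoded genes, no trend, voom on recovered reads, the replicate number as a block and leaving out each library. Where immunoglobulin or mitochondrially encoded genes were left out, FPKM were rescaled to an equal sum over all remaining genes. Sums of the deposited FPKM differ between libraries, and the main test did not equalise them.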

Additional observations from a re-analysis of the deposited data

How the results depend on the processing

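The count of nuclear genes that rose stayed between 53 and 76 under the alternatives run, except 88 with scaling to the CD3 chains, and 39 of the 71 genes named by the rule kept their direction and call under all of those in which they were tested, since 60 of the 71 were tested at 5 FPKM or more, 67 with voom and 58 without mitochondrially encoded genes. Nuclear genes called lower numbered 5 with equal upper quartiles, 0 scaled to the CD3 chains, 5 without immunoglobulin genes, 0 without mitochondrially encoded genes, 1 after quantile normalization and 6 with equal library medians. Mitochondrially encoded genes called lower numbered 2, 0 and 2 under the first 3 of these, and 2 and 2 under the last 2, and scaling to the CD3 chains called 12 of them higher. On that scale, 236 genes of the other lists were higher and 0 lower, and without mitochondrially encoded genes 10 were lower. The summed mitochondrially encoded level differed by 0.09 with equal upper quartiles, 0.74 after quantile normalization, 0.069 with equal library medians, 1.28 scaled to the CD3 chains, 0.088 without immunoglobulin genes, 0.32 over the 5 genes with no annotated copy other than mt-Atp8 and 0.31 without mt-Co1. The nuclear sum differed by 0.27, 0.46, 0.25, 1.47 and 0.27 under the first 5 of these and by 0.58 without mitochondrially encoded genes. The ratio of mitochondrially to nuclear encoded members, as sums, differed by 0.28 after quantile normalization, -0.25 as a difference of mean log2 values, -0.053 over the 5 genes and -0.062 without mt-Co1.

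Single genes changed sign as follows, and the cause was not tested beyond the scaling itself. With equal upper quartiles these were mt-Co1 (-0.0737), Uqcrh (-0.0199) and Cox4i2 (-0.063), without immunoglobulin genes the same 3 (-0.0758, -0.022 and -0.0652), with equal library medians again these (-0.0946, -0.042 and -0.12), and after quantile normalization Cox4i2 (-0.0866). Without mitochondrially encoded genes they were Ndufa1 (0.0133), Ndufa13 (0.0233), Cox6b2 (0.13), Ndufaf7 (0.15), Ndufaf5 (0.16), Coq10b (0.0333), Ppargc1b (0.085) and Idh3b (0.17). Scaling to the CD3 chains, with a median of all genes of 1.02, turned mt-Nd3 (0.37), mt-Atp8 (0.34), Ndufa1 (0.89), Ndufa13 (0.89), Cox7a2l (0.82), Cox6b2 (0.97), Ndufaf7 (0.94), Ndufaf5 (0.92), Surf1 (0.57), Coq10a (0.68), Coq10b (0.71), Slc25a20 (0.48), Mterf2 (0.24), Tk2 (0.53), Gabpb2 (0.69), Ppargc1b (0.79), Taz (0.69), Idh3b (1.03), Mrpl58 (0.45) and Mrpl9 (0.80).

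Leaving out each library in turn gave 58 to 61 nuclear genes higher and 1 to 3 lower, 6 to 7 mitochondrially encoded genes higher and 1 to 2 lower, and log2 differences of 0.15 to 0.22 and 0.36 to 0.40 for the 2 sums and -0.21 to -0.17 for their ratio. In those fits 6 members lost their call at least once and 8 gained one, and ranges that crossed 0 were -0.0129 to 0.059 (mt-Co1), -0.0613 to 0.48 (mt-Nd4l), -0.11 to 0.44 (mt-Atp6), -0.0484 to 0.38 (mt-Co3), -0.13 to 0.0207 (Cox6b2), -0.13 to 0.0368 (Ndufaf7), -0.10 to 0.0692 (Ndufaf5), -0.12 to 0.18 (Cox4i2) and -0.0544 to 0.00692 (Idh3b). Same-numbered replicates did not deviate together (correlations -0.03, 0.02 and -0.05), so no pairing by number was seen. With 3 libraries per group such correlations cannot exclude it. With the replicate number as a block 62 nuclear genes were higher and 2 lower, 6 mitochondrially encoded genes were higher and 1 lower, and 152 genes of the other lists were higher and 18 lower. Depth limits the genes with few reads, such as Cox6a2, Cox4i2, Cox7a1, mt-Nd3, mt-Nd4l and mt-Atp8, and reads without molecular identifiers are not independent molecules.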
